A study of Mus musculus with 6 samples.

Results

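The mitochondrial carrier family was examined in hearts of mouse fetuses late in gestation. Carriers are proteins of the inner mitochondrial membrane that exchange nucleotides, phosphate, amino acids, carboxylates, cofactors and metals between the cytosol and the matrix. Each is built from repeats of one membrane module and most bear the gene symbol Slc25a, followed by a number. The uncoupling proteins belong to the same family, and the best known of them, Ucp1, lets protons back into the matrix of brown fat and so releases heat. In the heart, ADP/ATP exchange and phosphate entry supply the ATP synthase, and the malate-aspartate shuttle carries reducing power from glycolysis into mitochondria. Members were the rows of the deposited gene table whose symbol begins with Slc25a or is Ucp1, Ucp2 or Ucp3, and whose transcript types include a protein-coding one. These were 48 of 31529 genes in the table. Slc25a5-ps, a processed pseudogene, met the symbol rule but not the transcript rule. Slc25a48 and Slc25a54 were not analysed here.

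Polyadenylated RNA was sequenced from hearts of wild-type (WT) mice of the outbred ICR stock at embryonic day 18.5 (E18.5) and embryonic day 16.5 (E16.5), 3 libraries per stage, described by the submitters as biological replicates. The labels name no treatment, transgene or mutation at either stage. The sources used here do not give how many hearts or litters went into a library, so p-values measure the spread between these libraries. A whole heart holds several cell types, and in such bulk RNA a change in the number of cells of a type and a change in RNA per cell cannot be told apart.

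Estimated counts summed to between 61443414 and 71510191 in the E18.5 libraries and to between 67082123 and 77237333 in the E16.5 libraries. Genes of the mitochondrial chromosome took 33.5%, 26.7% and 25.2% of the counts in E18.5 replicates 1, 2 and 3, and 41.4%, 19.9% and 35.03% in E16.5 replicates 1, 2 and 3. E16.5 replicate 2 therefore stood apart from the other E16.5 libraries on this measure, and values without it are given for several members and lists. The 10 cardiomyocyte markers, among them Tnnt2, Actc1 and Myh6, summed to between 36919 and 45466 CPM at E18.5 and between 32851 and 40083 CPM at E16.5. Sums of 7 epicardial markers lay between 151 and 202 CPM at E18.5 and between 90.1 and 103 CPM at E16.5, with 1 of 7 called higher, and sums of 8 fibroblast markers lay between 3806 and 4994 CPM at E18.5 and between 2261 and 3573 CPM at E16.5, with 0 of 8 called. None of the markers on these 3 lists was at 0 in every library, and the part of these cells in the results was not tested. CPM here is counts scaled to a common library size after TMM scaling (trimmed mean of M-values, an adjustment for library composition). It is the scale of the library values below unless FPKM or counts are named. FPKM, a fragment count per transcript length and library size, as deposited, is used to compare genes with each other, since it takes length into account.

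Most of the carrier signal came from genes that serve ATP production. Slc25a4, the ADP/ATP carrier of heart and skeletal muscle, had a mean of 474 FPKM over the 6 libraries and ranked 24 among 17579 nuclear protein-coding genes. Slc25a3, the phosphate carrier, had 86.6 FPKM, and Slc25a5, the ADP/ATP carrier of most other tissues, had 73.5 FPKM. Slc25a4 alone made up 55.0% of the summed FPKM of the family, and these 3 genes together made up 73.5%. The stretches of 120 bases before the RefSeq start of each of them (GRCm38.p6) are shown because these 3 genes gave most of the family's FPKM. They lie at chr8:46211063-46211182 on the minus strand for Slc25a4, at chrX:36795477-36795596 on the plus strand for Slc25a5, and at chr10:91123968-91124087 on the minus strand for Slc25a3. The GENCODE spans given below reach further upstream than these RefSeq starts for Slc25a4 and Slc25a3, so that the Slc25a4 stretch lies within its GENCODE span and the Slc25a3 stretch mostly does. Capitals mark a CCAAT box (CCAAT) or a GC box (GGGCGG), read on either strand.
Slc25a4: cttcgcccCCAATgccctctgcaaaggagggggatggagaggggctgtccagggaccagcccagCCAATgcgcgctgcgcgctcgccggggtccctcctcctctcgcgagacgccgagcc
Slc25a5: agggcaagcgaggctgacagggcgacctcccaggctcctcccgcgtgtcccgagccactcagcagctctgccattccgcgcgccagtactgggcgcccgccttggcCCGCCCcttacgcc
Slc25a3: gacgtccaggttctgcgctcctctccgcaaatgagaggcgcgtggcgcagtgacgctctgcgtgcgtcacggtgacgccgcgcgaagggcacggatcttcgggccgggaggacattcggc
Slc25a4 held 2 CCAAT boxes, Slc25a5 held 1 GC box, and Slc25a3 held neither in this stretch. RefSeq promoter windows of 300 bases, 250 before the start and 50 after it, were at hand for 37 of the 48 members, 47 windows in all. A GC box stood in 38 of these 47 windows (80.9%), against 35.7% of 32851 windows of all genes. The windows of all genes were not filtered here by transcript type or by level in heart, so the 2 sets are unlike. CCAAT stood in 46.8% of the member windows, against 37.4% of all. The cyclic AMP response element TGACGTCA stood in 4.26% of the member windows (those of Slc25a25 and Slc25a36), against 1.79% of all, and TATAAA in 4.26% (Slc25a18 and Slc25a21), against 13.6% of all. The estrogen-related receptor element TCAAGGTCA, the palindromic element of the nuclear respiratory factor Nrf1 and the Yy1 element were each in 0 member windows, against 0.423%, 0.971% and 0.852% of all windows. These are matches of letters in a window and not binding sites. Each motif was sought on both strands and counted on its own, and a GC box and a CCAAT box can share bases.

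Mean FPKM over the 6 libraries was 100 or more for 1 member, 10 or more but under 100 for 10, 1 or more but under 10 for 22, and under 1 for 15. Slc25a11 (24.996 FPKM), the oxoglutarate carrier of the malate-aspartate shuttle, Slc25a39 (24.5), a glutathione carrier, and Slc25a36 (21.2), a pyrimidine nucleotide carrier, came next. Slc25a28 (14.0), a mitoferrin that brings in iron, Ucp2 (11.8), Slc25a37 (11.8), the other mitoferrin, Slc25a23 (10.7), a calcium-regulated ATP-Mg/phosphate carrier, and Slc25a38 (10.1), the glycine carrier of heme synthesis, completed this range. Neighbours in this order, such as Slc25a11 and Slc25a39, or Ucp2 and Slc25a37, differed by less than their spread between libraries. At the lower end stood Slc25a31, the ADP/ATP carrier of testis, at 0.245 FPKM. Its means were 0.699 ± 0.0595 CPM at E18.5 and 0.448 ± 0.188 CPM at E16.5 (SD, n = 3 each), with an adjusted p of 0.714 (edgeR).

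**Figure D1:**
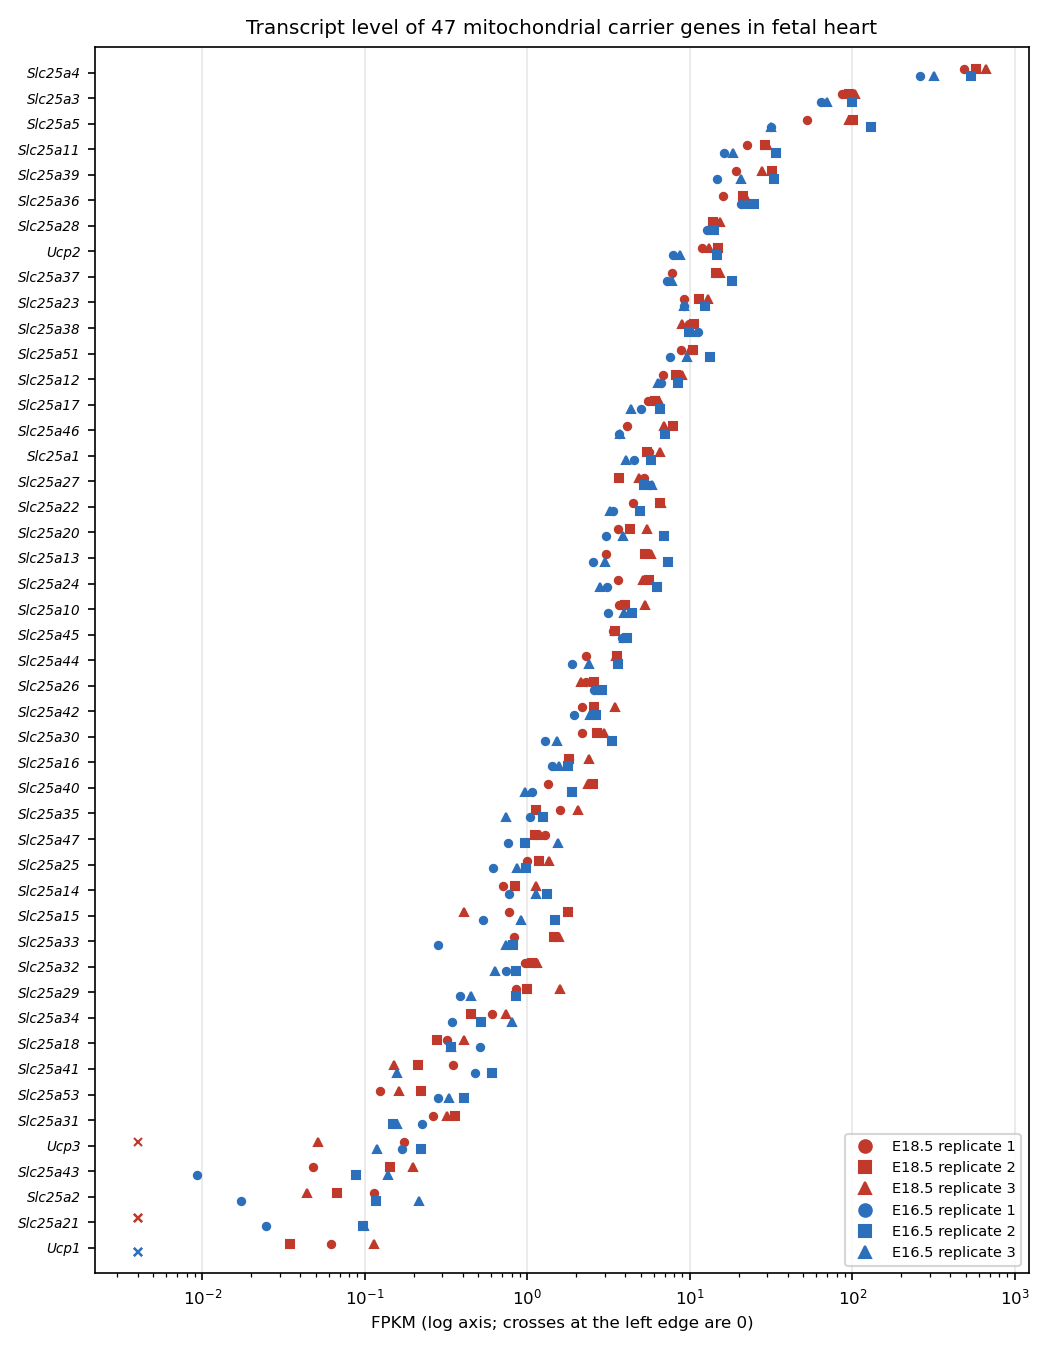
FPKM of 47 carrier genes (log axis) in each library, with E18.5 in red above E16.5 in blue, one marker shape per replicate and crosses for 0. Slc25a4 lies apart at 474 FPKM on average, followed by Slc25a3 and Slc25a5, and the others form a continuous slope down to genes near or at 0.

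Between the stages, no carrier passed the test after adjustment over all genes. Of the 48 members, 46 had enough counts to be tested, and 0 of them had an adjusted p under 0.05 (edgeR quasi-likelihood test, Benjamini-Hochberg over 19959 genes), where 30 genes, or 0.150% of all tested, did (0.0952% higher and 0.0551% lower). An unadjusted p under 0.05 was reached by 9.53% of all genes, and on this count 6 members (13.0% of those tested) were higher at E18.5, against 4.83% of all genes, and 1 member (2.17%) was lower, against 4.70% of all genes. The 6 were Slc25a22, Slc25a4, Slc25a29, Slc25a40, Slc25a33 and Slc25a25, and the 1 was Slc25a53. A log2 change above 0 was seen in 30 of the 46 (65.2%, against 49.8% of all genes). The median log2 change of the tested members was 0.12, beside -0.0019 over all tested genes. In 8 members the E18.5 libraries all lay above the E16.5 libraries (17.4%, against 8.45% of all genes), and in 2 they all lay below (4.35%, against 8.02%). Without E16.5 replicate 2, 1 member was called (Slc25a4), while 9 members on the higher side and 7 on the lower reached that unadjusted p, as 23.4% of all genes did. Without that library the log2 change was 0.36 for Slc25a11 (unadjusted p = 0.0113, adjusted p = 0.106, edgeR) and 0.62 for Slc25a30 (unadjusted p = 0.00434, adjusted p = 0.0742, edgeR), against 0.19 and 0.33 with it. It was 0.30 for Slc25a39, 0.43 for Slc25a37, 0.47 for Slc25a13, 0.40 for Slc25a24, 0.40 for Slc25a31 and -0.42 for Slc25a38, against 0.15, 0.13, 0.10, 0.19, 0.64 and -0.23 with it. On the lower side it was -0.59 for Slc25a27, -0.48 for Slc25a26 and -0.45 for Slc25a45, against -0.41, -0.36 and -0.32 with it. For Slc25a36 it was -0.42 (unadjusted p = 0.00758, adjusted p = 0.0902, edgeR), against -0.32, and for Slc25a29 it was 1.16, against 0.97. Without E16.5 replicate 1 and without E16.5 replicate 3, Slc25a11 was at 0.10 and 0.096, and Slc25a30 at 0.19 and 0.21.

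**Figure D2:**
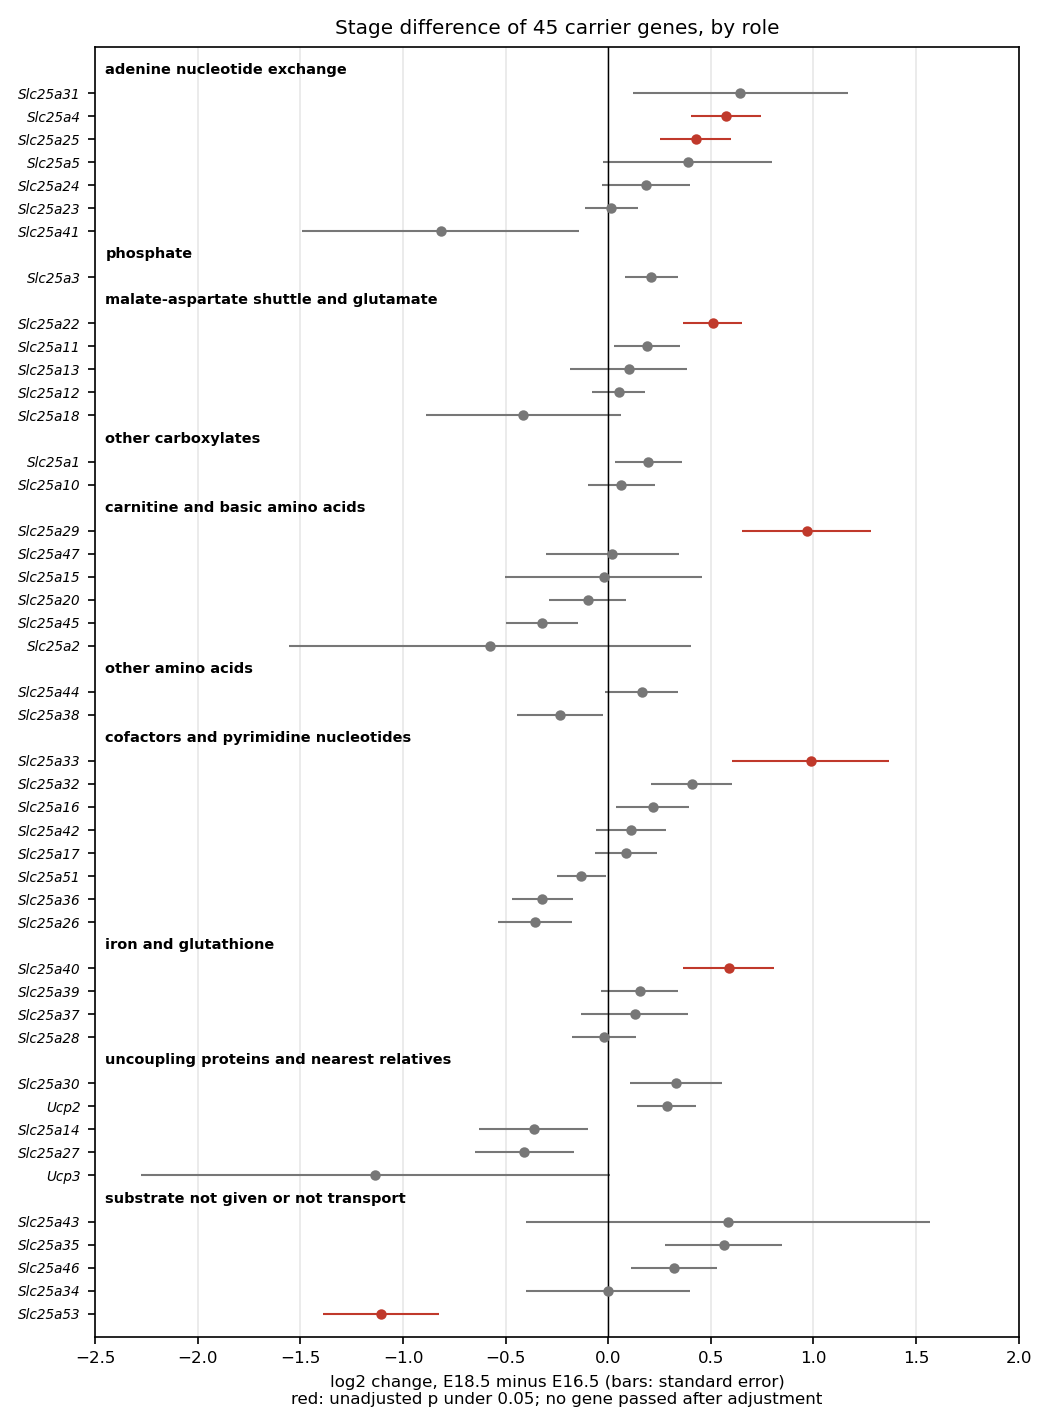
Log2 change at E18.5 relative to E16.5 for 45 tested carriers, grouped by role, with bars of 1 standard error. The 7 genes in red had an unadjusted p under 0.05, and none passed after adjustment. Slc25a53 at -1.11 and Slc25a33 at 0.99 lie near the ends, and low genes such as Ucp3 have the widest bars.

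Carriers of adenine nucleotides and phosphate had values above 0 apart from 1. Of 7 adenine nucleotide carriers, 6 had a log2 change above 0, against 49.8% of all genes. An unadjusted p under 0.05 was reached by 2 of the 7, against 9.53% of all genes. The median log2 change of the 7 was 0.39. That median was 0.15 without E16.5 replicate 1, 0.10 without E16.5 replicate 3, 0.25 without E18.5 replicate 2 and 0.26 with the mitochondrial share as a term. Slc25a4 (ENSMUSG00000031633, GRCm38 chromosome 8, 46206797 to 46211284) was at 1336, 1362 and 1539 CPM in E18.5 replicates 1, 2 and 3, and at 827, 1132 and 889 CPM in E16.5 replicates 1, 2 and 3. Every E18.5 library lay above every E16.5 library, and E16.5 replicate 2 was nearest to E18.5. The means were 1412 ± 110 CPM at E18.5 and 949 ± 161 CPM at E16.5 (SD, n = 3 each), a 1.49-fold difference with a log2 change of 0.57 ± 0.17 (SE) and an adjusted p of 0.353 (edgeR). Without E16.5 replicate 2 its log2 change was 0.72 with an adjusted p of 0.0425, and with the mitochondrial share of each library as a term it was 0.51 with an adjusted p of 0.0287. DESeq2 gave it an adjusted p of 0.0624. With E16.5 replicate 1 left out its log2 change was 0.47 (adjusted p = 0.626, edgeR), and with E16.5 replicate 3 left out 0.52 (adjusted p = 0.752, edgeR). With E18.5 replicate 1, 2 or 3 left out the adjusted p was 0.460, 0.790 or 0.813 (edgeR). Limma on log2(FPKM + 0.1) gave an adjusted p of 0.799.

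Slc25a3 (chromosome 10, 91116574 to 91124059) was at 563, 532 and 567 CPM in E18.5 replicates 1, 2 and 3 and at 484, 492 and 459 CPM in E16.5 replicates 1, 2 and 3. The stages did not overlap, and the log2 change was 0.21 ± 0.13 (SE) with an adjusted p of 0.635 (edgeR). Slc25a5 (chromosome X, 36795651 to 36798807) was at 101, 167 and 154 CPM in E18.5 replicates 1, 2 and 3 and at 70.5, 190 and 61.8 CPM in E16.5 replicates 1, 2 and 3. E16.5 replicate 2 held the highest value of all 6 libraries, and its fellow E16.5 libraries held the lowest. The log2 change was 0.39 ± 0.41 (SE, adjusted p = 0.781, edgeR). Without E16.5 replicate 2 the log2 change of Slc25a5 was 1.09 with an adjusted p of 0.0517 (edgeR). With E16.5 replicate 1 left out instead it was 0.15 (adjusted p = 0.974, edgeR), and with E16.5 replicate 3 left out 0.10 (adjusted p = 0.988, edgeR). The estimate thus rested on which E16.5 library was left out.

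The calcium-regulated ATP-Mg/phosphate carriers, which adjust the adenine nucleotide pool of the matrix, did not pass either. Slc25a25 was at 9.20, 9.30 and 10.6 CPM in E18.5 replicates 1, 2 and 3, and at 6.59, 6.90 and 8.17 CPM in E16.5 replicates 1, 2 and 3. The stages did not overlap, and the log2 change was 0.43 ± 0.17 (SE, adjusted p = 0.485, edgeR). Slc25a25 overlaps Naif1 on the other strand, which held 51.2% as many counts, and counts of both together gave a log2 change of 0.25. Slc25a24 averaged 17.1 ± 2.46 CPM at E18.5 and 15.0 ± 3.93 CPM at E16.5 (SD, n = 3 each). Slc25a23 was at 56.9, 60.1 and 67.3 CPM in E18.5 replicates 1, 2 and 3 and at 65.7, 58.6 and 58.0 CPM in E16.5 replicates 1, 2 and 3. The stages overlapped, with a log2 change of 0.02 whose sign turned when some libraries were left out. Slc25a41, a relative without the calcium-binding part, was low, at 0.349 ± 0.182 CPM at E18.5 and 0.617 ± 0.314 CPM at E16.5.

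None of the carriers of the malate-aspartate shuttle and of glutamate passed after adjustment, and Slc25a22 had the smallest unadjusted p among them. Slc25a22 (chromosome 7, 141429744 to 141437892), which brings glutamate into the matrix with a proton, was at 31.3, 39.3 and 39.1 CPM in E18.5 replicates 1, 2 and 3 and at 27.6, 26.6 and 23.0 CPM in E16.5 replicates 1, 2 and 3. All E18.5 libraries were above all E16.5 libraries. Its 1.42-fold difference, a log2 change of 0.51 ± 0.15 (SE), had an unadjusted p of 0.00764 and an adjusted p of 0.329 (edgeR). Slc25a12, the aspartate-glutamate carrier of excitable tissues, was at 58.3, 60.8 and 64.6 CPM in E18.5 replicates 1, 2 and 3, against 66.5, 55.1 and 55.9 CPM in E16.5 replicates 1, 2 and 3. Its log2 change was 0.05 ± 0.13 (SE). The related Slc25a13 was at 13.5, 20.2 and 21.5 CPM in E18.5 replicates 1, 2 and 3, against 13.0, 24.9 and 13.6 CPM in E16.5 replicates 1, 2 and 3, and the stages overlapped over nearly their whole range. For Slc25a11 the values were 55.5, 61.4 and 62.6 CPM at E18.5 and 46.8, 64.5 and 46.2 CPM at E16.5, in replicate order, with a log2 change of 0.19 ± 0.16. Slc25a18, the second glutamate carrier gene, had 0.678 ± 0.122 CPM at E18.5 and 0.906 ± 0.388 CPM at E16.5. It overlaps Atp6v1e1 on the other strand over 32 bases, and Atp6v1e1 held 3880% as many counts. Counts of both together were not tested.

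Among the enzymes on either side of these shuttles, 0 of 7 passed after adjustment. Of the 7, 6 had a log2 change above 0, against 49.8% of all genes, with a median of 0.50. The smallest p belonged to Got1, the cytosolic aspartate aminotransferase (log2 change 0.52, adjusted p = 0.526, edgeR), Gpd1, the cytosolic glycerol phosphate dehydrogenase (0.51), and Mdh1, the cytosolic malate dehydrogenase (0.51). Mdh1 was at 270, 338 and 371 CPM in E18.5 replicates 1, 2 and 3 and at 161, 347 and 178 CPM in E16.5 replicates 1, 2 and 3, so that E16.5 replicate 2 lay within the E18.5 range, as it did for Got1. The mitochondrial aspartate aminotransferase Got2 had a log2 change of -0.01.

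Among other carboxylate carriers, neither of those tested passed. Slc25a1, the citrate carrier that exports carbon for lipid synthesis, averaged 13.4 ± 1.302 CPM at E18.5 and 11.7 ± 1.48 CPM at E16.5 (log2 change 0.19 ± 0.16), and Slc25a10, the dicarboxylate carrier, had a log2 change of 0.06 ± 0.16 (SE). Slc25a21 (chromosome 12, 56712634 to 57197472), the oxodicarboxylate carrier, had 0 counts in each E18.5 library, against 11, 35 and 40 counts in E16.5 replicates 1, 2 and 3. Against a floor of 3 counts over the E18.5 libraries, its 86 counts at E16.5 gave a 27.5-fold lower level at E18.5. Counting error at E16.5 and the spread between libraries are not included in this fold. The filter on low counts left Slc25a21 out of the edgeR test. DESeq2, which tested it, gave an adjusted p of 0.00251, and edgeR with no filter gave 0.275. Its end overlaps Pax9 on the other strand over 74 bases, and Pax9 held 69.8% as many counts. The counts are estimates, and Slc25a21 is listed at 0 in E18.5.

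Genes of fatty acid entry did not pass the test. Slc25a20, the carnitine-acylcarnitine carrier that brings long-chain acyl groups to beta-oxidation, was at 20.6, 20.8 and 26.0 CPM in E18.5 replicates 1, 2 and 3 and at 19.96, 29.8 and 22.3 CPM in E16.5 replicates 1, 2 and 3. The stages overlapped, and the log2 change of -0.10 ± 0.19 (SE, adjusted p = 0.879, edgeR) changed sign without E16.5 replicate 2. Of 6 genes of the carnitine shuttle, 3 had a log2 change above 0, 0 passed, and the smallest p belonged to the carnitine importer Slc22a5 (0.21), carnitine acetyltransferase Crat (0.25) and Cpt1b (-0.16), the muscle form of the acyltransferase that loads carnitine. Slc25a29 (chromosome 12, 108825873 to 108835883), a carrier of basic amino acids, was at 2.61, 2.62 and 4.11 CPM in E18.5 replicates 1, 2 and 3, and at 1.37, 1.98 and 1.41 CPM in E16.5 replicates 1, 2 and 3. It was 1.95-fold higher in the fit, without overlap between stages, at a log2 change of 0.97 ± 0.31 (SE) and an adjusted p of 0.383 (edgeR). The ornithine carrier gene Slc25a15 spread from 2.28 to 10.02 CPM within E18.5, and from 4.10 to 7.45 CPM at E16.5. Slc25a45 was at 10.9, 9.57 and 9.42 CPM in E18.5 replicates 1, 2 and 3 and at 14.3, 10.2 and 12.9 CPM in E16.5 replicates 1, 2 and 3. E18.5 replicate 1 lay above E16.5 replicate 2, and the log2 change was -0.32 ± 0.18 (SE). Slc25a47 had a log2 change of 0.02 ± 0.32 (SE), and Slc25a2 had at most 25 counts in a library.

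The pyrimidine nucleotide carriers Slc25a33 and Slc25a36 had log2 changes of opposite sign, and neither passed after adjustment. Slc25a33 (chromosome 4, 149744036 to 149774277) was at 1.83, 2.76 and 2.90 CPM in E18.5 replicates 1, 2 and 3 and at 0.733, 1.38 and 1.66 CPM in E16.5 replicates 1, 2 and 3. Its log2 change was 0.99 ± 0.38 (SE, adjusted p = 0.466, edgeR) and the stages did not overlap. The antisense gene Gm13068 held 14.9% as many counts. Counts of both together gave a log2 change of 0.78 (unadjusted p = 0.0510, adjusted p = 0.524, edgeR). Slc25a36 (chromosome 9, 97074961 to 97111157) was at 179, 205 and 208 CPM in E18.5 replicates 1, 2 and 3, against 270, 212 and 258 CPM in E16.5 replicates 1, 2 and 3. Here every E18.5 library lay below every E16.5 library, with a log2 change of -0.32 ± 0.15 (SE, unadjusted p = 0.0600, adjusted p = 0.540, edgeR).

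None of the cofactor carriers passed the test. Slc25a32, a folate and flavin carrier, was at 6.92, 6.55 and 6.86 CPM in E18.5 replicates 1, 2 and 3, against 6.11, 4.64 and 4.59 CPM in E16.5 replicates 1, 2 and 3 (log2 change 0.41 ± 0.20, adjusted p = 0.555, edgeR). Slc25a51, the NAD carrier, averaged 56.3 ± 1.77 CPM at E18.5 and 61.7 ± 4.59 CPM at E16.5, and Slc25a42, a coenzyme A carrier, averaged 17.1 ± 2.98 CPM at E18.5 and 15.8 ± 1.64 CPM at E16.5 (SD, n = 3 each). Slc25a26, the S-adenosylmethionine carrier, was at 12.8, 12.4 and 10.2 CPM in E18.5 replicates 1, 2 and 3 and at 16.9, 12.3 and 16.1 CPM in E16.5 replicates 1, 2 and 3. Its log2 change was -0.36 ± 0.18 (SE), with E16.5 replicate 2 inside the E18.5 range, and it overlaps Lrig1, a gene with 151% as many counts on the other strand. The sum of Slc25a26 and Lrig1 had a log2 change of -0.05. Slc25a16 and the peroxisomal Slc25a17 had log2 changes of 0.22 and 0.09. Slc25a44, a carrier of branched-chain amino acids, had one of 0.16, and Slc25a38 one of -0.23.

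The iron carriers varied within each stage. Slc25a37, the mitoferrin that red cell precursors rely on, was at 54.8, 87.1 and 90.4 CPM in E18.5 replicates 1, 2 and 3 and at 59.3, 96.9 and 56.0 CPM in E16.5 replicates 1, 2 and 3. Its relative Slc25a28 was at 62.1, 51.8 and 56.5 CPM in E18.5 replicates 1, 2 and 3, against 65.0, 46.9 and 61.2 CPM in E16.5 replicates 1, 2 and 3. The 3 libraries in which Slc25a37 was high were those in which Slc25a28 was low. The 11 erythroid markers with a row, mostly adult globins by level, summed to 8996, 16709 and 21112 CPM in E18.5 replicates 1, 2 and 3 and to 9450, 23807 and 15523 CPM in E16.5 replicates 1, 2 and 3. These sums were also highest in E16.5 replicate 2 and in E18.5 replicates 2 and 3, and their part in the Slc25a37 values was not tested. Of the 11, Hbb-y was called lower at E18.5 and none had 0 counts in every library. Of 13 enzymes of heme and iron-sulfur synthesis, 0 passed, with a median log2 change of 0.13, and Isca2 (0.26), Alas1 (0.27) and Iscu (0.23) had the smallest p.

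The glutathione carriers Slc25a39 and Slc25a40 had E18.5 means 1.11 and 1.501 times those at E16.5 in the fit. Slc25a39 was at 62.0, 88.3 and 75.7 CPM in E18.5 replicates 1, 2 and 3 and at 54.7, 80.9 and 67.8 CPM in E16.5 replicates 1, 2 and 3 (log2 change 0.15 ± 0.19). Slc25a40 (chromosome 5, 8422850 to 8454797) was at 13.1, 21.3 and 19.7 CPM in E18.5 replicates 1, 2 and 3, against 12.2, 14.0 and 9.70 CPM in E16.5 replicates 1, 2 and 3. E18.5 replicate 1 lay below E16.5 replicate 2, so the stages overlapped, and the log2 change of 0.59 ± 0.22 (SE) had an adjusted p of 0.457 (edgeR).

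Among the uncoupling proteins, Ucp2 was the only one at an appreciable level. Ucp2 (chromosome 7, 100493337 to 100502020), which many tissues and leukocytes express, was at 96.6, 104 and 89.7 CPM in E18.5 replicates 1, 2 and 3 and at 74.3, 92.1 and 72.0 CPM in E16.5 replicates 1, 2 and 3. E16.5 replicate 2 lay within the E18.5 range, and the log2 change was 0.28 ± 0.14 (SE, adjusted p = 0.568, edgeR). The 11 macrophage and leukocyte markers summed to between 68.6 and 91.3 CPM at E18.5 and between 70.5 and 77.6 CPM at E16.5, with 0 of 11 called and none at 0 in every library. Ucp3, known from skeletal muscle and heart, was at 0.660, 0 and 0.164 CPM in E18.5 replicates 1, 2 and 3 and at 0.733, 0.628 and 0.452 CPM in E16.5 replicates 1, 2 and 3. Its adjusted p was 0.768 (edgeR), and Gm10603 on the other strand held 172% as many counts. Ucp1 had 8, 4 and 13 counts in E18.5 replicates 1, 2 and 3 (0.120, 0.0569 and 0.193 CPM), against 0 in each E16.5 library. Over a floor of 3 counts in the E16.5 libraries together, Ucp1 was 8.67-fold higher, with counting error at E18.5 not included. It was too low for the edgeR filter, and without a filter its adjusted p was 0.613.

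Markers of fat were given beside Ucp1 since the gene defines brown adipocytes. Of the 7 adipocyte markers with a row, Adipoq, Plin1, Cidec, Lep and Retn were at most 0.179 CPM in every library, and 0 of the 2 high enough to test, Cidea and Prdm16, passed. Ucp1 itself was at most 0.193 CPM. Like Ucp1, Lep and Retn were at 0 in every E16.5 library, and they reached 0.0600 and 0.135 CPM in E18.5 replicate 1. Adipoq, Plin1 and Cidec had counts at E16.5 as well. The list summed to between 18.7 and 27.8 CPM at E18.5 and between 19.8 and 20.8 CPM at E16.5, of which Prdm16, a gene the fetal heart itself expresses, made up 15.9 to 24.0 CPM at E18.5 and 16.6 to 17.9 CPM at E16.5. Slc25a27, Slc25a14 and Slc25a30 are the nearest relatives of the uncoupling proteins. Slc25a27 was at 24.2, 14.5 and 18.8 CPM in E18.5 replicates 1, 2 and 3 and at 30.5, 18.4 and 27.6 CPM in E16.5 replicates 1, 2 and 3. Slc25a14 was at 1.97, 2.00 and 2.63 CPM in E18.5 replicates 1, 2 and 3 and at 2.49, 2.80 and 3.20 CPM in E16.5 replicates 1, 2 and 3. Both overlapped between stages, with log2 changes of -0.41 ± 0.24 for Slc25a27 and -0.36 ± 0.27 for Slc25a14 (SE). Slc25a30 had a log2 change of 0.33 ± 0.23 (SE). None of the 5 tested members of this group had an unadjusted p under 0.05.

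Slc25a53, on chromosome X at 136981116 to 137038302, was the single member with a lower level at an unadjusted p under 0.05. It was at 1.19, 1.78 and 1.28 CPM in E18.5 replicates 1, 2 and 3 and at 3.09, 2.91 and 3.15 CPM in E16.5 replicates 1, 2 and 3. The stages were well separated, at a log2 change of -1.11 ± 0.28 (SE), an unadjusted p of 0.00396 and an adjusted p of 0.261 (edgeR). Its span overlaps that of Zcchc18 on the other strand over 3224 bases, and Zcchc18 held 69.7% as many counts with a log2 change of -0.09. Counts of both together gave a log2 change of -0.67. The genes Slc25a34 and Slc25a35, whose substrates are not settled, had log2 changes of -0.0016 and 0.56, and Slc25a46, a member of the outer membrane that acts on mitochondrial shape, had one of 0.32. Slc25a35 overlaps Rangrf on the other strand over 33 bases, and Rangrf held 205% as many counts. Counts of both together were not tested. Slc25a43 had at most 25 counts in a library.

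**Figure D3:**
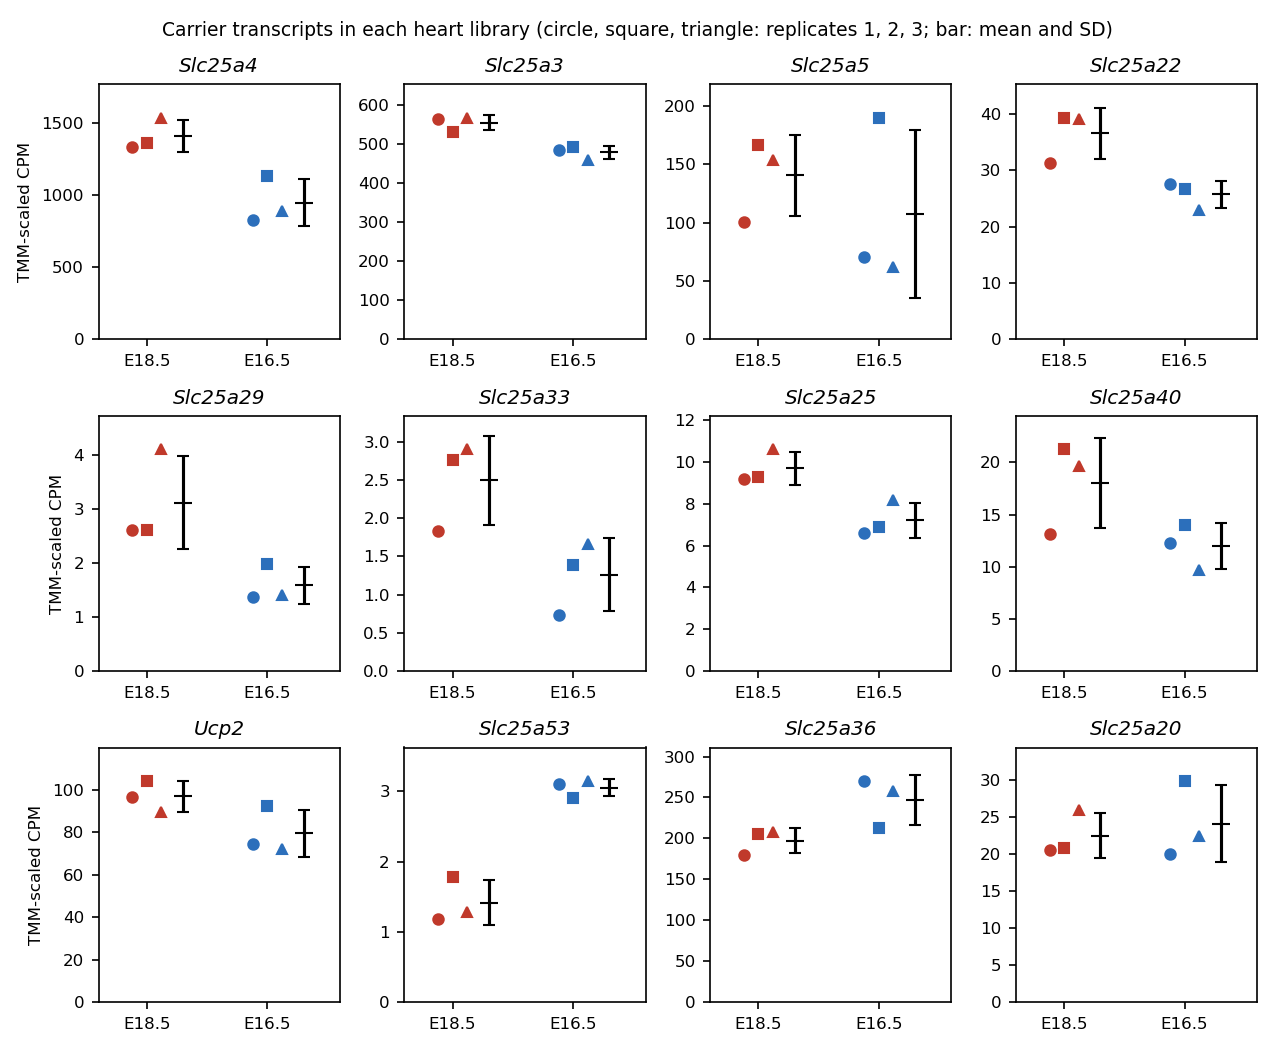
TMM-scaled CPM of 12 carriers in each library, E18.5 left of E16.5, with the mean and SD of 3 libraries beside the points. Slc25a4, Slc25a3, Slc25a22, Slc25a29, Slc25a33 and Slc25a25 show no overlap with E18.5 above, Slc25a53 and Slc25a36 none with E18.5 below, and in Slc25a5 and Slc25a20 the square of E16.5 replicate 2 is the highest point.

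Relatives with a shared substrate were also compared as a ratio of FPKM + 0.1 within each library. The added 0.1 weighs on low genes such as Slc25a33. Of 8 pairs, 7 were high enough to test, and with 3 libraries against 3 the exact permutation test cannot give a two-sided p below 0.1. The ratio of Slc25a33 to Slc25a36 (FPKM + 0.1) was 0.0576, 0.0726 and 0.0752 in E18.5 replicates 1, 2 and 3 and 0.0182, 0.0368 and 0.0370 in E16.5 replicates 1, 2 and 3. This was the only pair without overlap, with a log2 difference of 1.22 and an exact permutation p of 0.1 (0.7 adjusted over the 7 pairs). With FPKM + 1 the log2 difference was 0.70. Slc25a4 exceeded Slc25a5 in every library, by 9.25, 5.71 and 6.98 times in E18.5 replicates 1, 2 and 3 and by 8.19, 4.17 and 10.03 times in E16.5 replicates 1, 2 and 3, and the log2 difference between stages was 0.04 (exact permutation p = 1). Slc25a12 exceeded Slc25a13 by 2.20, 1.55 and 1.55 times in E18.5 replicates 1, 2 and 3, and by 2.58, 1.14 and 2.09 times in E16.5 replicates 1, 2 and 3. Slc25a39 exceeded Slc25a40 by 11.3 to 13.5 times at E18.5 and by 12.5 to 19.4 times at E16.5 (log2 difference -0.38, exact permutation p = 0.2). For Slc25a37 over Slc25a28 the ratio ran from 0.553 to 1.05 at E18.5 and from 0.572 to 1.28 at E16.5.

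**Figure D4:**
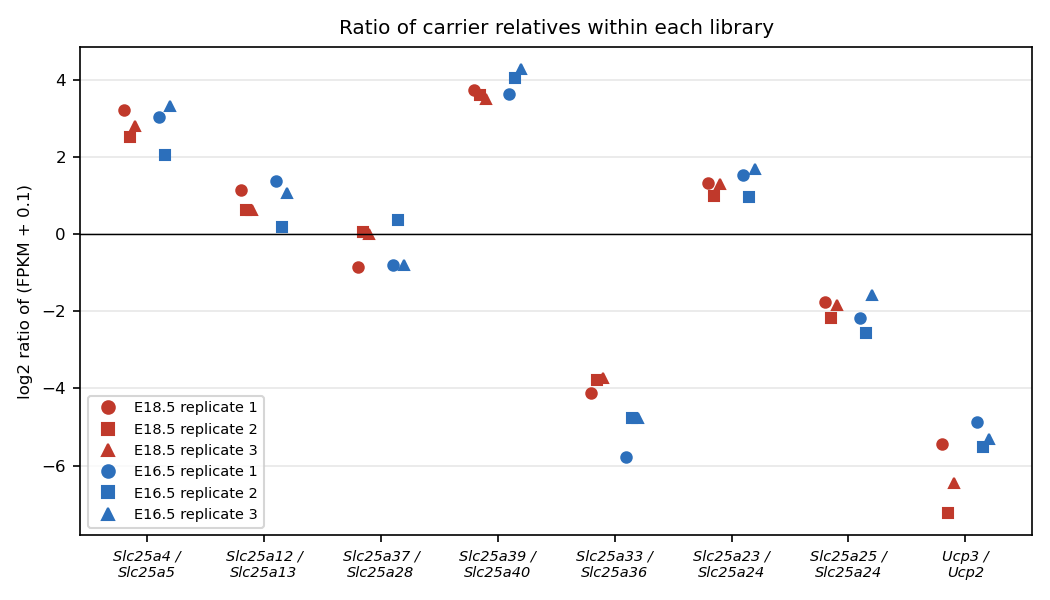
Log2 ratio of FPKM + 0.1 for 8 pairs of carriers in each library, E18.5 in red left of E16.5 in blue. The stages separate for Slc25a33 over Slc25a36, and for Slc25a4 over Slc25a5, Slc25a12 over Slc25a13 and Slc25a37 over Slc25a28 the square of E16.5 replicate 2 lies at an end of the range. Ucp3 over Ucp2 is shown without a test because Ucp3 was under 0.5 FPKM at both stages.

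The levels of the abundant carriers were also set against the mitochondrial share of the library, and no relation passed after adjustment. Over the 6 libraries, the log2 CPM of Slc25a11 had a Pearson r of -0.92 with that share (permutation p = 0.00833, Spearman rho -0.94, p = 0.0167), Slc25a5 one of -0.92 (permutation p = 0.0194, rho -0.89, p = 0.0333), Slc25a37 one of -0.89 (permutation p = 0.0444, rho -0.77, p = 0.103), Slc25a39 one of -0.87 (permutation p = 0.0278, rho -0.77, p = 0.103), and Slc25a28 one of 0.93 (permutation p = 0.0111, rho 0.89, p = 0.0333). Slc25a4 had an r of -0.65 (permutation p = 0.164). Without E16.5 replicates 1 and 2, the libraries farthest from the median share, r was -0.90 for Slc25a11, -0.93 for Slc25a5, -0.99 for Slc25a37, -0.79 for Slc25a39 and 0.83 for Slc25a28. For the other members compared, r went from 0.13 to -0.83 for Slc25a23, 0.55 to 0.28 for Slc25a36 and -0.32 to -0.59 for Slc25a3. It went from -0.65 to -0.79 for Slc25a4 and from -0.65 to -0.58 for Ucp2. An r over so few libraries is unstable. Over the 10 most abundant members that were compared in this way, the lowest adjusted p was 0.0556 for Pearson and 0.111 for Spearman. The share differs between libraries of both stages, each stage has 3 libraries, and no r within a stage was computed.

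**Figure D5:**
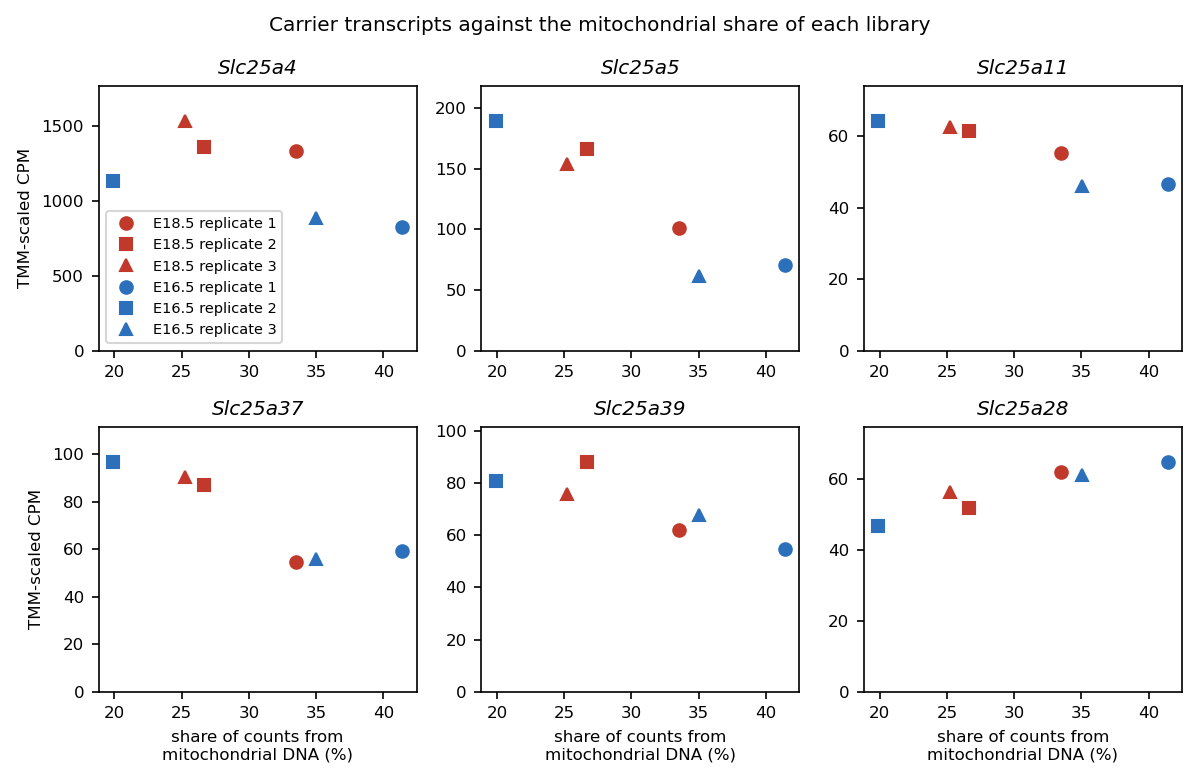
TMM-scaled CPM of 6 carriers against the percentage of counts from genes of the mitochondrial chromosome, 1 point per library. Slc25a5, Slc25a11, Slc25a37 and Slc25a39 fall from left to right across both stages, Slc25a28 climbs, and in Slc25a4 the E18.5 points lie above the E16.5 points.

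Genes that work beside the carriers had 0 calls as well. Mpc1 and Mpc2, the subunits of the pyruvate carrier, which is not a Slc25a gene, had log2 changes of 0.95 and 0.78 with adjusted p of 0.439 and 0.431 (edgeR). Mpc1 was at 45.4, 64.7 and 52.6 CPM in E18.5 replicates 1, 2 and 3 and at 19.5, 46.5 and 18.03 CPM in E16.5 replicates 1, 2 and 3, with E16.5 replicate 2 inside the E18.5 range. Together with the outer membrane channels and Mtch1 and Mtch2, 7 of 7 genes had a log2 change above 0 and 0 passed. The list had a median of 0.27, and the channel Vdac3 was at 0.43. Of 16 nuclear ATP synthase genes with a row, 16 had a log2 change above 0 (median 0.37), 3 had an unadjusted p under 0.05, namely Atp5k (0.43), Atp5l (0.60) and Atp5j (0.41), and 0 passed. Of 10 genes for import of carriers into the inner membrane, 9 had a log2 change above 0 (median 0.18) and 0 passed, with Timm13 at 0.33, the lipid kinase Agk at -0.28 and Timm10b at 0.18. Over all tested genes 49.8% had a log2 change above 0 and 9.53% had an unadjusted p under 0.05. When 1 library was left out, the median ran from 0.16 to 0.73 for the pyruvate carrier and channels, from 0.21 to 0.65 for ATP synthase and from 0.099 to 0.41 for import, the lowest value of each without E16.5 replicate 1 and the highest without E16.5 replicate 2. It ran from 0.29 to 0.49 for the shuttle enzymes and from 0.041 to 0.33 for heme and iron-sulfur synthesis. These lists were read as counts only.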

How the data were processed

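Hearts of WT ICR mice at E18.5 and E16.5 gave 3 libraries each. Per the file headers, the deposited table of 31529 genes has columns of estimated counts and of FPKM for every library. The counts are whole numbers, taken as estimates and not rounded further. The submitters' processing notes name StringTie 1.3.4d, HISAT2 2.0.4, cutadapt 1.9, UMI-tools and the build mm9. Use of strand, removal of UMI duplicates and the annotation are not given in the sources used here, so overlapping and antisense genes may share reads. Positions come from GENCODE M21 (GRCm38) by Ensembl identifier. Only 611 of 29874 shared identifiers lay at the deposited coordinates, which are not those of M21 and are not printed. No mm9 annotation was compared, so whether the deposited coordinates are those of mm9 was not checked.

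Stages were compared with edgeR 4.0.16 (R 4.3.3): filterByExpr, TMM, glmQLFit and glmQLFTest, two-sided, stage as the only term, Benjamini-Hochberg over 19959 genes. SE is the absolute log2 change over the square root of F. Alternatives were DESeq2 1.42.0, its size factors, no filter, limma 3.58.1 on log2(FPKM + 0.1) and log2(FPKM + 1) for genes with a mean of at least 0.5 FPKM, a replicate block, mitochondrial genes left out or their share as a term, and leaving out each library. Sums with overlapping genes or copies were added after seeing the data. Near-identical copies (BLAST 2.17.0, at least 95% identity over 300 bases) were found for 4 members, at up to 1.14% of the member's counts. Folds for a gene at 0 in a stage use a floor of 3 counts for that stage and the observed counts of the other. Members and lists were chosen with earlier results of these data known. Values per library are given for the 10 most abundant members, up to 6 in each direction by unadjusted p, and a list of 25, some by stage means. Slc25a32, Slc25a21, Mdh1 and Mpc1 were given by library after their values were seen. Values of 1 member, which counts and medians include, are not reported here.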

Additional observations from a re-analysis of the deposited data

How the results depend on the processing

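Of 32 named members tested, 24 kept their direction and their side of the threshold under every alternative run. None of the 32 was called in the main fit, so keeping the side means only that a member stayed uncalled. Slc25a53, Slc25a31 and Ucp3 were too low for the limma settings. Slc25a4 passed with the mitochondrial share as a term (log2 change 0.51) and without E16.5 replicate 2 (0.72), and under no other alternative. Genes called numbered 30, against 343 with DESeq2, 184 with that share as a term, 16 and 10 with limma on log2(FPKM + 0.1) and log2(FPKM + 1), the last being 5 higher and 5 lower, and 8 to 371 when 1 library was left out, where 371 came without E16.5 replicate 2 and 8 to 16 without any other library. Members called were 0, against 1 with DESeq2 (Slc25a21), 1 with the share as a term, and 0 to 1 when 1 library was left out. Members with an unadjusted p under 0.05 were 7, against 3 and 3 with limma at the smaller and larger pseudocount, 12 with the share as a term, and 5 to 16 when 1 library was left out, where 16 came without E16.5 replicate 2. Of all genes, 9.53% reached that p in the main fit, 6.28% and 6.45% with limma and 14.7% with the share as a term. Without E16.5 replicate 2, 23.4% of all genes did. Limma tested 39 members, against 46 in the main fit. The median log2 change of the members, 0.12, was 0.25 and 0.20 with limma, where the median of all genes was 0.12 and 0.08, and 0.073 to 0.18 when 1 library was left out. Pairs without overlap were 1, and 1 to 2 when 1 library was left out.

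Signs turned for small values. With the share as a term, Slc25a13 was at -0.045, Slc25a28 at 0.071, Slc25a34 at 0.072 and Slc25a37 at -0.014. With limma at the smaller and larger pseudocount, Slc25a20 was at 0.018 and 0.0068, Slc25a28 at 0.094 and 0.089, and Slc25a34 at 0.13 and 0.044. Slc25a34 was at 8.48e-05 with no filter. Leaving out 1 library gave -0.075 to 0.47 for Slc25a13, -0.23 to 0.087 for Slc25a20, -0.055 to 0.067 for Slc25a23, -0.15 to 0.063 for Slc25a28, -0.19 to 0.43 for Slc25a34, -0.022 to 0.43 for Slc25a37 and -0.042 to 0.18 for Slc25a42. The log2 ratio differences ran from -0.42 to 0.17 for Slc25a12 to Slc25a13, -0.052 to 0.44 for Slc25a25 to Slc25a24, -0.044 to 0.54 for Slc25a37 to Slc25a28 and -0.34 to 0.30 for Slc25a4 to Slc25a5. The cause was not tested.

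Replicate numbers were not shown to pair the libraries. Deviations of same-numbered libraries correlated at 0.28, 0.37 and -0.08, against -0.45 to 0.28 for differently numbered libraries. These few values do not settle whether the numbers mark pairs. With a replicate block, 43 genes and 0 members were called, and 8 of 46 members had an unadjusted p under 0.05, as 12.8% of all genes did. The median log2 change of the tested members was then 0.14, and that of Slc25a34 was 0.053. The depth limits Slc25a2, Slc25a43, Slc25a21 and Ucp1, which had at most 40 counts in a library.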

Other observations

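Of the 48 members, 4 lie on chromosome X. Xist, which silences an X chromosome in females, was at 9.74, 9.13 and 1189 CPM in E18.5 replicates 1, 2 and 3 and at 14.6, 965 and 1353 CPM in E16.5 replicates 1, 2 and 3. Slc25a53 was at 1.28 CPM in the E18.5 library with high Xist and at 1.19 and 1.78 CPM in those with low Xist, and at 2.91 and 3.15 CPM in the E16.5 libraries with high Xist and 3.09 CPM in the one with low Xist.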
